A study of Mus musculus with 8 samples.

Results

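The mitochondrial protein import machinery was examined in the left ventricle of mice that overexpress Mst1 in cardiomyocytes. Its genes were chosen by symbol, as all genes named Tomm or Timm with a number, together with Timmdc1, Samm50 and Mtx1 to Mtx3, with symbols of pseudogenes left out. The rule reads symbols only. It gave 31 of the 55385 genes in the deposited table, of which 29 had enough counts to be tested. The other 2 were Timm8a2, with 0 counts in all 8 libraries, and Tomm20l, with 1 count in the library WT 2.

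The study sequenced RNA of left ventricles of male C57BL6 mice, in 4 libraries labelled Mst1-TG and 4 labelled WT. Mst1-TG mice carry an Mst1 transgene whose promoter, alpha-myosin heavy chain, is active in cardiomyocytes only, and are labelled as having experimental dilated cardiomyopathy. WT animals are littermates without the transgene, and the sources used here name no other allele or treatment in either group. The age differs between the sources: the series design gives 3 weeks for these files, the RNA protocol gives 3 months, and the animal protocol gives 3 weeks for young and 5.5 months for adult mice. No label states that the numbered samples are different animals, and the p-values therefore rest on the spread among these 8 samples, which may be technical. Ventricular tissue was homogenised whole, and a lower level in such tissue cannot be told apart between fewer cells of a type and less RNA per cell.

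Nearly all mitochondrial proteins are made in the cytosol and enter the organelle through the TOM complex of the outer membrane. The SAM complex then places barrel-shaped proteins into the outer membrane, small TIM chaperones carry hydrophobic proteins across the intermembrane space, TIM23 takes proteins with a presequence into the matrix, and TIM22 inserts carriers into the inner membrane. Heart muscle is rich in mitochondria, and most of its ATP comes from the respiratory chain that this import supplies.

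The promoters of the genes were compared for short motifs, because nuclear genes for mitochondrial proteins often share binding sites of a few factors. RefSeq promoters (GRCm38.p6, 250 bases before to 50 bases after the start) were at hand for 28 of the genes, with 30 promoters in all. The motif of ETS factors such as GABPA, written CCGGAAG and searched on both strands like all others, was in 14 of the 30 (46.7%), against 8.86% of 32851 promoters in the genome and 15.8% of the 14467 promoters of tested genes. The 7 windows printed here hold the last 100 bases before the start, 5′ to 3′ on the strand of the gene, with motif letters in capitals. They show the 3 genes with the largest falls (Timm44, Samm50, Timm23), a small TIM (Timm8b), a TOM subunit (Tomm22), a gene that did not pass the test (Mtx3) and the gene that rose (Tomm34).
Timm44 (chr8:4275906-4276005, minus strand): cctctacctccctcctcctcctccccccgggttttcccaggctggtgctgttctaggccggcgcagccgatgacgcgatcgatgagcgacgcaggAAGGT
Samm50 (chr15:84192140-84192239, plus strand): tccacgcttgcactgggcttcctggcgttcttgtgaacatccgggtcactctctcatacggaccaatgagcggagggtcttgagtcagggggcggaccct
Timm23 (chr14:32201892-32201991, minus strand): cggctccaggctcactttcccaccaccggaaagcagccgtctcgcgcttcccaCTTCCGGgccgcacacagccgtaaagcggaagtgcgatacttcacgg
Timm8b (chr9:50603801-50603900, plus strand): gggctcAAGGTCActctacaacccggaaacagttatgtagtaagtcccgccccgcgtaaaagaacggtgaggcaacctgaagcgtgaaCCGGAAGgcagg
Tomm22 (chr15:79670768-79670867, plus strand): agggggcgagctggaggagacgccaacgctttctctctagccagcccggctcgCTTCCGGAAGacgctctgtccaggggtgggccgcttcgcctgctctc
Mtx3 (chr13:92844668-92844767, plus strand): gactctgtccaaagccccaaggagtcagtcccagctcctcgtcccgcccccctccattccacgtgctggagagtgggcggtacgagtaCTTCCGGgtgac
Tomm34 (chr2:164071170-164071269, minus strand): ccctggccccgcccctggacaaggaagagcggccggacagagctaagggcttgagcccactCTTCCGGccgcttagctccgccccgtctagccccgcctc
Timm23, Timm8b, Tomm22, Mtx3 and Tomm34 hold the ETS motif in these windows, read on the other strand as CTTCCGG in all but Timm8b, and Tomm22 carries it on both strands in overlapping letters. Genes that fell, the gene that rose and a gene that was not called therefore share the motif. Among promoters of genes called lower, 10 of 19 held it. Samm50, Tomm5, Tomm40, Timm17a and Timm17b held none of the 6 motifs searched. The motif AAGGTCA, bound by oestrogen-related receptors, was in 3 of 30 promoters (10%, against 4.72% of all and 3.42% of those of tested genes), those of Timm44, Timm23 and Timm8b. In Timm44 it runs across the start, so the printed window ends within it, and in Timm23 it lies after the start. The YY1 motif AAGATGGC was in 3 of 30 (10%, against 2.75% and 4.01%), those of Mtx1, Mtx3 and Timm50, and its first letters can overlap the end of an ETS motif. The NRF1 core CGCATGCG was in 1 of 30 (3.33%, against 1.87% and 3.46%), that of Timm13. Neither the cAMP response element TGACGTCA (1.79% and 2.85%) nor TGATGNAA, the element bound by ATF4 dimers (3.97% and 2.20%), occurred in any of the 30 windows. A match or its lack describes only these letters.

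The libraries held 21193536 to 23809256 estimated counts. The targeted gene Stk4, which encodes Mst1, stood at 1448.56 to 1747.16 CPM in the 4 Mst1-TG libraries and at 25.2 to 29.6 CPM in the 4 WT libraries, so every library matched its label. CPM are counts brought to a common library size, here with TMM, a factor that sets the bulk of genes level between libraries. Transcripts encoded in mitochondrial DNA made up 21.4% to 23.8% of counts in WT and 12.9% to 14.4% in Mst1-TG. When libraries were scaled by their totals alone (library totals in what follows), the median of all tested genes moved from 0.01 to 0.29 on the log2 scale. The defining markers of ventricular cardiomyocytes were detected in all libraries. Of 10 such markers, 7 were lower and 0 higher in Mst1-TG, with a summed level of 62160 to 73580 CPM in WT and 41030 to 53270 CPM in Mst1-TG. All 8 fibroblast markers were higher, with sums of 2580 to 3437 CPM in WT and 6187 to 8613 CPM in Mst1-TG. Endothelial markers (3 lower and 1 higher of 8) summed to 1855 to 2304 and 1480 to 2216 CPM, and markers of pericytes and smooth muscle (3 lower and 1 higher of 7) to 1617 to 1972 and 1177 to 1440 CPM. No leukocyte marker (7 tested) and no erythroid marker (4 tested) was called, with sums of 253.3 to 352.1 against 270.4 to 365.4 CPM and 3144 to 8009 against 2039 to 4269 CPM. All 3 tested atrial markers were lower (89.65 to 127.7 against 31.23 to 90.52 CPM) with Bmp10 at 0, and 1 of 2 tested skeletal muscle markers was higher (0.957 to 1.67 against 3.19 to 4.82 CPM in sum) with Myh4 at 0.

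Most import genes were lower in Mst1-TG ventricles. Of the 29 tested, 22 fell, 1 rose and 6 did not pass the test (edgeR quasi-likelihood test, adjusted p below 0.05 over all 15314 genes). Over all genes tested, 21.1% were called lower and 21.2% higher. The median log2 fold change of the 29 was -0.44 and that of all genes 0.01. In the same 22 genes every Mst1-TG library lay below every WT library, against 20.1% of all genes, and in the gene that rose every Mst1-TG library lay above, against 20.2%. With library totals 14 of the 29 were called lower, at a background of 10.4% lower and 48.4% higher. The same libraries had 7 of 10 cardiomyocyte markers lower and 8 of 8 fibroblast markers higher, and their part in the result was not tested.

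**Figure D1:**
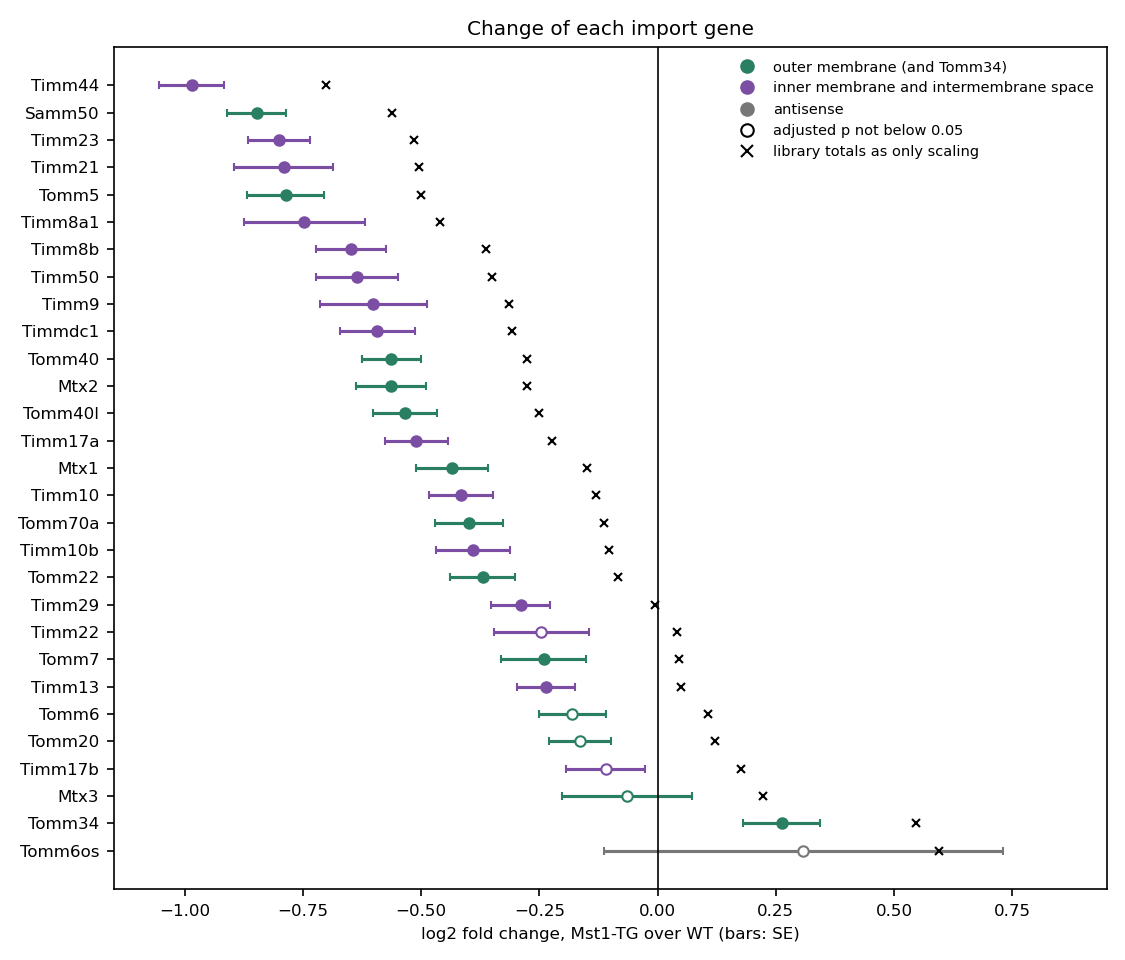
Log2 fold change of each tested import gene, Mst1-TG over WT, with bars of 1 SE (n = 4 libraries a group), sorted by size; filled circles passed adjusted p below 0.05, and crosses give the value with library totals. Timm44 (-0.99) and Samm50 (-0.85) lie farthest to the left and Tomm34 (0.26) is the filled circle on the right; with library totals the points of Tomm6, Tomm7, Tomm20, Mtx3, Timm13, Timm17b and Timm22 change sign.

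The general entry gate, TOM, was lower in its channel and in most small subunits. Tomm40, the channel through which precursors cross the outer membrane, stood at 58.0, 52.7, 52.4 and 54.9 CPM in Mst1-TG 1 to 4 and at 83.8, 84.8, 77.9 and 75.8 CPM in WT 1 to 4. All 4 Mst1-TG libraries lay below all WT libraries, and the fitted log2 fold change was -0.56 ± 0.06 (SE; adjusted p = 9.3e-06). Its paralogue Tomm40l fell by a like amount, from 87.8 ± 5.89 to 60.6 ± 3.53 CPM (SD, n = 4), a log2 fold change of -0.54 ± 0.07. Tomm40l overlaps Nr1i3 on the opposite strand, which had 0 to 10 counts per library. Tomm5, a small subunit that helps pass precursors to the channel, showed the largest fall within TOM. It stood at 46.1, 39.5, 46.0 and 53.6 CPM in Mst1-TG and at 77.4, 81.9, 80.7 and 79.8 CPM in WT, with Mst1-TG 4 the highest of its group and still below every WT library (log2 fold change -0.79 ± 0.08). Tomm22, the central receptor that joins the channel subunits, went from 71.4 ± 3.31 to 55.2 ± 4.25 CPM (log2 fold change -0.37 ± 0.07), but with library totals it was at -0.083 and not called.

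Tomm7 and Tomm6, small subunits that tune the stability of the complex, were near the threshold. Tomm7 stood at 29.8, 36.2, 36.7 and 37.8 CPM in Mst1-TG and at 47.3, 41.2, 38.0 and 39.6 CPM in WT. The highest Mst1-TG library almost met the lowest WT library, and the fall of Tomm7 (log2 fold change -0.24 ± 0.09, adjusted p = 0.045) turned to 0.045 with library totals. Its call was lost without Mst1-TG 1 (-0.17), Mst1-TG 2 (-0.26), Mst1-TG 3 (-0.26), WT 1 (-0.18), WT 2 (-0.25) or WT 4 (-0.27), each fitted alone. Tomm6 had 36.6 to 44.7 CPM in Mst1-TG and 44.6 to 47.9 CPM in WT, which overlap by a single library, Mst1-TG 4. Its log2 fold change of -0.18 ± 0.07 did not pass (adjusted p = 0.058), passed without Mst1-TG 4 (-0.22), and was 0.11 with library totals. With the counts of a near-identical transcript, Gm21981, added it was -0.17 and did not pass.

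The receptors that meet precursors in the cytosol differed in their calls. Tomm70a, which takes carrier proteins from chaperones, stood at 82.7, 70.2, 69.1 and 75.8 CPM in Mst1-TG and at 96.3, 106.8, 95.3 and 94.3 CPM in WT, with no overlap (log2 fold change -0.40 ± 0.07, adjusted p = 5.3e-04), but with library totals it was at -0.11 and not called. Tomm20, the receptor for presequences, stood at 104.4, 102.0, 108.2 and 120.3 CPM in Mst1-TG and at 127.2, 117.0, 120.4 and 122.9 CPM in WT. Mst1-TG 4 lay among the WT libraries, and the log2 fold change of -0.16 ± 0.07 did not pass (adjusted p = 0.059). Without Mst1-TG 4 it passed (-0.22), and with library totals it was 0.12. With the counts of near-identical copies added it was -0.15 and did not pass. The difference between the receptors was itself not beyond the threshold: the log2 ratio of Tomm20 to Tomm70a within a library differed by 0.24 ± 0.10 between groups (exact permutation test, two-sided, p = 0.114, adjusted p = 0.163 over the 10 ratios tested).

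Samm50, the core of the SAM complex that folds barrel proteins into the outer membrane, fell most among outer membrane genes. It stood at 138.5, 145.1, 130.6 and 137.1 CPM in Mst1-TG and at 262.2, 243.9, 244.5 and 241.5 CPM in WT. The groups lay far apart, Mst1-TG being at 55.6% of WT (log2 fold change -0.85 ± 0.06, adjusted p = 2.3e-07). The metaxins assist SAM from the cytosolic side. Mtx2 went from 76.5 ± 5.30 to 51.8 ± 4.21 CPM (log2 fold change -0.56 ± 0.07) and Mtx1 from 20.3 ± 0.55 to 15.0 ± 0.86 CPM (-0.44 ± 0.08), the latter at -0.15 and not called with library totals. Mtx3 stood at 15.97, 14.1, 12.7 and 13.1 CPM in Mst1-TG and at 12.8, 19.3, 13.6 and 12.7 CPM in WT, with WT 2 alone above the rest. Its log2 fold change was -0.06 ± 0.14 (adjusted p = 0.74), 0.10 without WT 2 and 0.22 with library totals.

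Tomm34 was the gene of the set that rose. It encodes a cytosolic co-chaperone that binds Hsp70 and Hsp90 and is not a subunit of TOM. It stood at 24.04, 22.8, 21.9 and 21.7 CPM in Mst1-TG and at 20.3, 18.8, 16.6 and 19.8 CPM in WT, so the groups were close but did not overlap. The log2 fold change was 0.26 ± 0.08 (adjusted p = 0.021), and the call was lost without Mst1-TG 1 (0.23) or without WT 3 (0.20). Tomm34 (chr2:164053540-164071169, minus strand) is the neighbour of Stk4 itself (chr2:164070322-164155524, plus strand). The gene models overlap by 848 bp at their starts, with 0 bp of shared exon, and 2969 bp lie between the start of Tomm34 and that of the longest Stk4 transcript. The part of this position in the value was not tested.

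**Figure D2:**
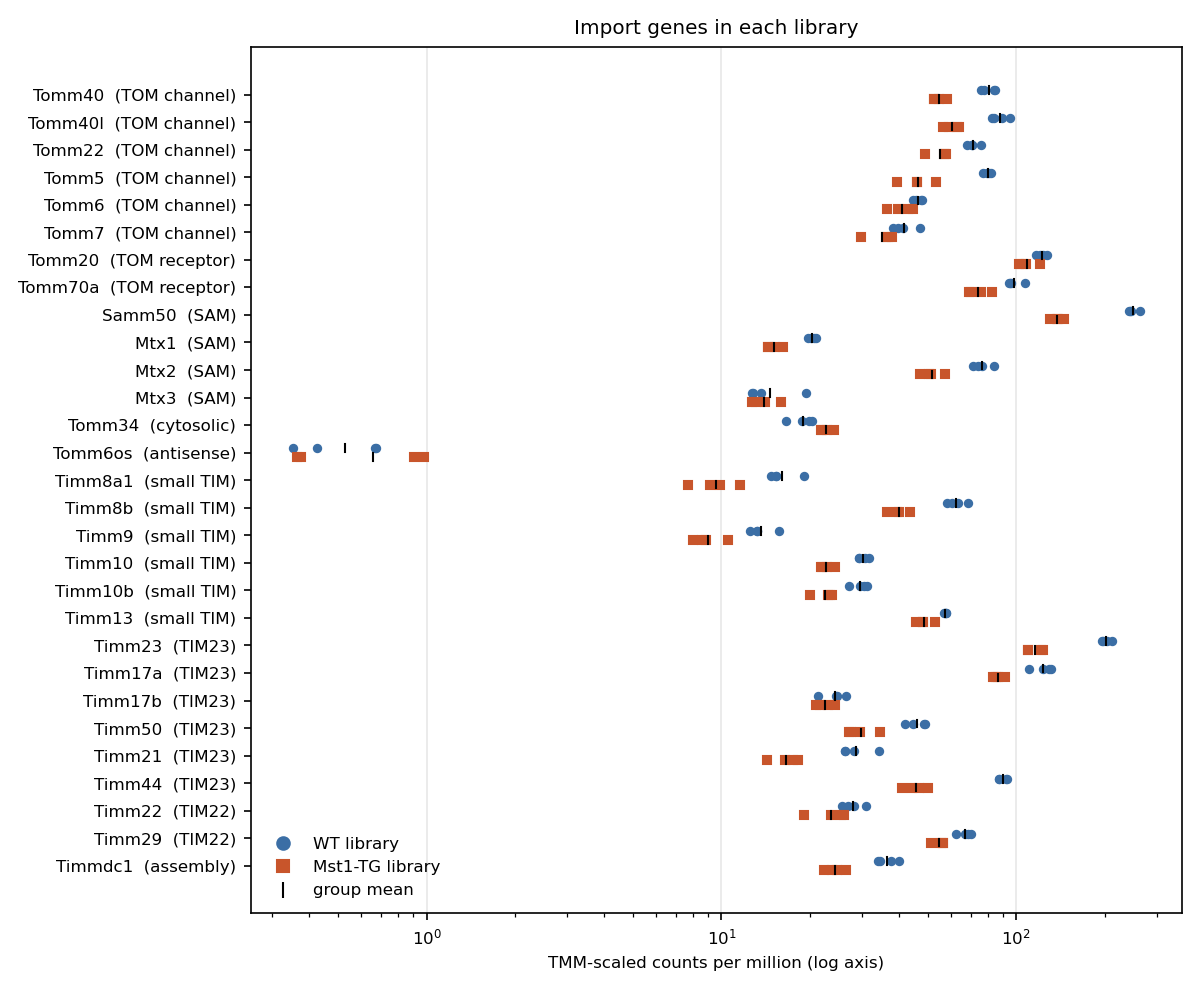
Level of each tested import gene in every library, in CPM on a log axis, with points for the 4 WT and 4 Mst1-TG libraries and a line at each group mean. Samm50, Timm23 and Timm44 show a clear gap between groups, Mst1-TG points of Tomm34 lie above the WT points, and the points of Tomm6, Tomm20, Timm17b, Timm22 and Mtx3 overlap.

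The small TIM proteins of the intermembrane space form ring-shaped chaperones, TIM9-TIM10 for carriers and barrel proteins and TIM8-TIM13 for a narrower set. All 6 tested members fell, where 21.1% of all genes were lower, with a median log2 fold change of -0.51. With library totals, however, 3 of them were not called, Timm10 (-0.13), Timm10b (-0.10) and Timm13 (0.049). Timm8a1, the mouse counterpart of the gene mutated in deafness-dystonia syndrome, stood at 9.89, 7.73, 9.17 and 11.5 CPM in Mst1-TG and at 15.3, 19.0, 14.7 and 15.3 CPM in WT. The groups did not overlap (log2 fold change -0.75 ± 0.13). A transcript identical to Timm8a1 over 612 bp, Gm9797, held 89 to 108 counts in Mst1-TG and 118 to 169 in WT, and with its counts added the log2 fold change was -0.74. Timm8b went from 62.6 ± 4.49 to 39.9 ± 2.96 CPM (-0.65 ± 0.07) and Timm9 from 13.7 ± 1.41 to 8.997 ± 1.07 CPM (-0.60 ± 0.11).

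Timm10, the ring partner of Timm9, stood at 22.8, 21.9, 21.7 and 24.2 CPM in Mst1-TG and at 30.7, 31.6, 29.2 and 29.4 CPM in WT, with no overlap (log2 fold change -0.42 ± 0.07). Timm10b, which holds a ring at the TIM22 complex, showed -0.39 ± 0.08. A transcript 99.7% identical to Timm10b over 365 bp, Gm45799, held 84 to 134 counts in Mst1-TG and 70 to 119 in WT. It was thus not lower in Mst1-TG, and Timm10b was still called lower with its counts added. Timm13, the partner of Timm8a1, fell least: 48.2, 48.3, 45.8 and 53.0 CPM in Mst1-TG against 57.0, 57.9, 57.9 and 57.1 CPM in WT. Its WT libraries spread by under 1 CPM and lay above every Mst1-TG library (-0.24 ± 0.06, adjusted p = 0.0071).

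Of the 6 genes of TIM23, the inner membrane gate for proteins with a presequence, 5 fell and 1 was not called, with a median log2 fold change of -0.71. Among all genes tested, 21.1% were lower. Timm44, which tethers the Hsp70 motor to the channel on the matrix side, stood at 46.7, 44.3, 41.1 and 50.1 CPM in Mst1-TG and at 87.5, 92.2, 87.7 and 93.3 CPM in WT. The Mst1-TG libraries were at 50.5% of WT (log2 fold change -0.99 ± 0.07, adjusted p = 1.6e-07). Timm23, the channel-forming subunit, stood at 121.1, 109.4, 109.4 and 123.4 CPM in Mst1-TG and at 202.5, 211.5, 197.2 and 196.1 CPM in WT, again with a wide gap (-0.80 ± 0.07). Near-identical copies of Timm23 held at most 17 counts each in a library, and its log2 fold change was -0.80 with their counts added. Timm21, which links the gate to TOM and to the respiratory chain, went from 28.7 ± 3.82 to 16.6 ± 1.72 CPM (-0.79 ± 0.10). Timm50, the receptor that takes presequences from TOM, went from 46.1 ± 3.38 to 29.7 ± 3.39 CPM (-0.64 ± 0.09).

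The exchangeable subunits Timm17a and Timm17b, alternative partners of Timm23 in the gate, differed in their calls. Timm17a stood at 85.2, 86.4, 83.3 and 91.8 CPM in Mst1-TG and at 123.6, 130.7, 129.3 and 110.4 CPM in WT. Its groups did not overlap, WT 4 being the lowest WT library (log2 fold change -0.51 ± 0.07). Timm17b stood at 21.6, 20.9, 23.0 and 24.3 CPM in Mst1-TG and at 24.6, 24.4, 26.5 and 21.3 CPM in WT. Those groups overlapped, and the log2 fold change of -0.11 ± 0.08 did not pass (adjusted p = 0.32) and was 0.18 with library totals. Counted per kilobase of transcript, Timm17a made up 71.1% to 73.0% of the summed Timm17a and Timm17b level in WT and 64.6% to 67.6% in Mst1-TG. The height of this share depends on the length used. WT means of Timm17a and Timm17b were 44.2 and 17.2 CPM per kb with transcript length, and 15.6 and 9.46 with exon length.

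Of the 2 genes assigned here to TIM22, which inserts carriers with many membrane spans, 1 fell, where 21.1% of all genes were lower. Timm22, its channel, stood at 26.1, 19.0, 23.5 and 25.4 CPM in Mst1-TG and at 28.2, 31.0, 25.6 and 26.9 CPM in WT. Mst1-TG 1 lay above WT 3, and the log2 fold change of -0.25 ± 0.10 did not pass (adjusted p = 0.065), although it passed without Mst1-TG 1 (-0.30), and was 0.042 with library totals. Timm29, a subunit that joins TIM22 to TOM, went from 67.1 ± 3.29 to 54.9 ± 2.49 CPM (-0.29 ± 0.06, adjusted p = 0.0020) and was at -0.005 with library totals, where it did not pass. Timm10b, counted with the small TIMs, and Agk, a TIM22 subunit outside the symbol rule, are not in this count. Agk fell (-0.37 ± 0.11) but was at -0.080 and not called with library totals. Timmdc1, which resembles the TIM subunits in sequence but assembles respiratory complex I, went from 36.6 ± 2.84 to 24.3 ± 1.75 CPM (-0.59 ± 0.08). Tomm6os, a non-coding transcript antisense to Tomm6, stood below 1 CPM in every library and did not pass (0.31 ± 0.42, adjusted p = 0.60).

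Set against each other, 9 of 13 tested outer membrane genes fell and 1 rose, and 13 of 15 genes of the inner membrane and intermembrane space fell and 0 rose. The shares over all genes tested were 21.1% lower and 21.2% higher. The outer count includes Tomm34, without which it is 9 of 12. The inner count includes the complex I assembly factor Timmdc1, without which it is 12 of 14. Median log2 fold changes were -0.40 for the outer and -0.59 for the inner genes, and -0.11 and -0.31 with library totals. The inner median is the value of Timmdc1 itself. Without Tomm34 and Timmdc1 the medians were closer, at -0.42 for the outer and -0.56 for the inner genes. The summed level of outer over inner genes was 1.15 to 1.20 in WT and 1.24 to 1.29 in Mst1-TG, a ratio that does not depend on library scaling and does not overlap between groups. The spread inside each side was wider than the gap between sides. Outer genes ran from Samm50 at -0.85 to Tomm34 at 0.26, or to Mtx3 at -0.06 without Tomm34. Inner genes ran from Timm44 at -0.99 to Timm17b at -0.11.

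Ratios of paired members within a library are free of scaling between libraries, and 10 were tested with an exact permutation test over the 8 libraries (two-sided, smallest possible p 0.0286). In 5 of them the groups did not overlap, each with an exact permutation p = 0.0286, the smallest possible, and an adjusted p = 0.0571. With 5 of 10 ratios at that smallest p, none could pass after adjustment, so the adjusted p decides nothing about these 5. Among all single genes tested, the groups did not overlap in 20.1% (lower) and 20.2% (higher). The share among ratios of other gene pairs was not determined, so 5 of 10 cannot be read as particular to import genes. Timm17a over Timm17b counts averaged 5.10 in WT and 3.87 in Mst1-TG, a log2 difference of -0.40 ± 0.05 (SE). Timm8a1 over its partner Timm13 differed by -0.52 ± 0.13, Samm50 over Tomm40 by -0.28 ± 0.05, Tomm40 over Timm23, the outer over the inner channel, by 0.24 ± 0.03, and Timm22 over Timm23 by 0.55 ± 0.08. The groups overlapped for the other 5. Tomm40 over Tomm40l differed by -0.03 ± 0.08, Timm8a1 over Timm8b by -0.11 ± 0.14, Mtx1 over Mtx2 by 0.13 ± 0.08, Timm10 over Timm9 by 0.19 ± 0.10, and the receptors by the value given with them.

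**Figure D3:**
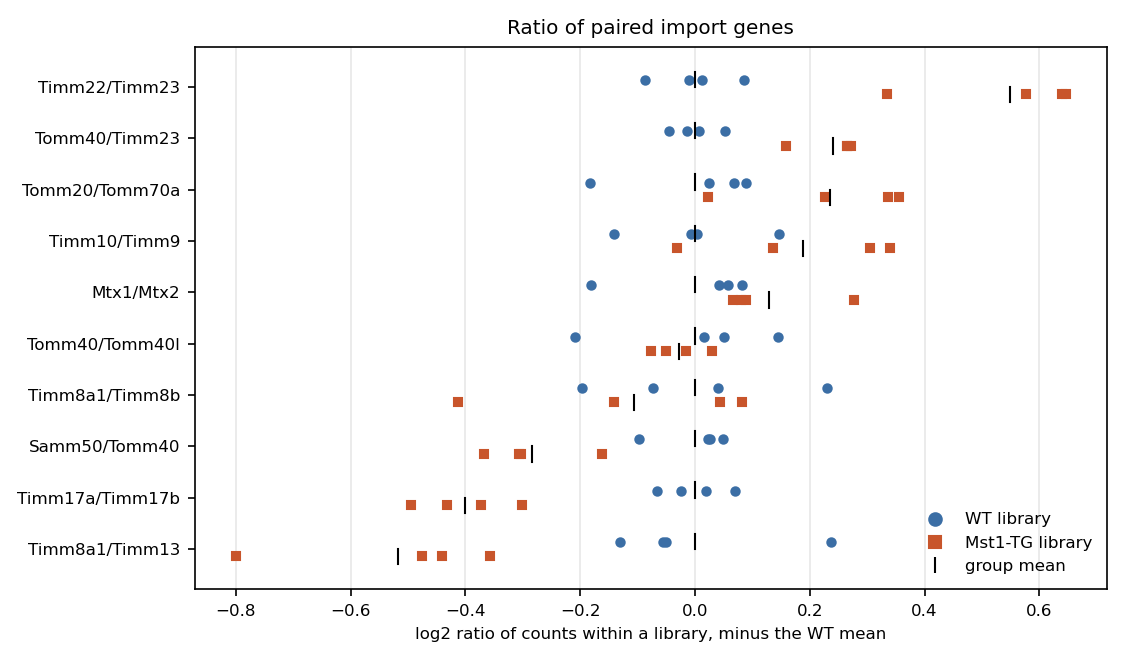
Log2 ratio of counts within each library for 10 pairs of import genes, set to 0 at the WT mean of each pair, with points for the 4 WT and 4 Mst1-TG libraries. The groups are apart for Timm17a/Timm17b, Timm8a1/Timm13, Samm50/Tomm40, Tomm40/Timm23 and Timm22/Timm23 and overlap for the other 5 pairs.

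Levels of different genes were compared per kilobase of transcript (CPM divided by the mean length of coding transcripts). In WT the highest levels on this scale were those of Timm23 (224 CPM per kb), Tomm5 (128), Timm8b (121), Timm13 (77.1) and Tomm6 (69.2), followed by Tomm40 (67.4), Tomm22 (60.7), Samm50 (53.6), Timm44 (50.4) and Timm10 (48.2). Mtx3 had the lowest level of the tested protein-coding genes, at 2.33 CPM per kb. With exon length in place of transcript length, 8 of the 10 highest were shared and the order at the top changed, with Timm8b (121 CPM per kb) above Timm23 (113).

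Other genes linked to protein import were also mostly lower. The list held 43 genes of the motor, matrix chaperones, peptidases, disulfide relay, insertases, cristae and SAM partners, quality control and VDAC channels. It thus reaches beyond the import machinery itself, and is called other import genes here. Of the 43, 37 fell, 1 rose and 5 did not pass, with a median log2 fold change of -0.58, where 21.1% of all genes were lower. With library totals 29 were lower and 2 higher, against 10.4% and 48.4% of all genes. The 5 that did not pass, named after their values were seen, were Gfer, Chchd6, Yme1l1, Lonp1 and Atad1. All 9 genes of the presequence motor and the matrix chaperones fell, but Grpel2 (-0.07) and Pam16 (-0.36) were not called with library totals. Hspd1, the matrix chaperonin Hsp60, went from 327 ± 36.1 to 149 ± 19.3 CPM (-1.13 ± 0.10). Dnajc15, a J-domain protein of the import motor, went from 66.5 ± 3.93 to 33.1 ± 3.83 CPM (-1.01 ± 0.08), and Grpel1, the exchange factor of the Hsp70 motor, showed -0.81 ± 0.06. All 7 processing peptidases fell, but Pmpcb (-0.06), Xpnpep3 (-0.02) and Pitrm1 (-0.10) were not called with library totals. Pmpca (-0.47 ± 0.06) is the alpha subunit of the enzyme that cuts off presequences. Mipep (-0.96 ± 0.10) trims some presequences further, and Immp1l (-0.57 ± 0.08) is a peptidase of the inner membrane. In the disulfide relay that folds the small TIMs, Chchd4 (-0.26 ± 0.07) and Aifm1 (-0.66 ± 0.08) fell, with Chchd4 at 0.023 and not called with library totals.

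Mtch1, an outer membrane protein of the carrier family, was the gene of this list that rose. It went from 205 ± 7.97 to 258 ± 18.9 CPM (log2 fold change 0.33 ± 0.07, adjusted p = 0.0017), with no overlap, while its paralogue Mtch2, an insertase for outer membrane helices, fell (-0.55 ± 0.06). Oxa1l, the insertase of the inner membrane, fell (-0.85 ± 0.07). Of 8 genes of cristae junctions and SAM partners, 7 fell, where 21.1% of all genes were lower. Among the 7 were the MICOS subunits Immt (-1.02 ± 0.07), Apoo (-0.86 ± 0.06) and Micos10 (-0.76 ± 0.06). Of 8 proteases and quality control genes, 5 fell, among them Clpx (-0.94 ± 0.07) and Clpp (-0.79 ± 0.06), the parts of the matrix protease ClpXP, and Spg7 (-0.62 ± 0.06), a protease of the inner membrane. The 3 VDAC channels, barrel proteins that SAM inserts, all fell: Vdac1 from 905 ± 31.4 to 532 ± 43.2 CPM (-0.77 ± 0.08), Vdac3 by -0.68 ± 0.07 and Vdac2 by -0.48 ± 0.07 in log2 fold change.

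Beside other nuclear genes of the organelle, the import genes had the median closest to 0. Of 84 tested nuclear genes of the respiratory chain, 80 fell and 0 rose, with a median of -0.998, and of 78 mitochondrial ribosomal proteins 72 fell and 0 rose, with a median of -0.61, where 21.1% of all genes were lower. With library totals 75 respiratory chain genes were lower and 1 higher, and 52 mitochondrial ribosomal genes were lower and 5 higher. The summed level of the import genes was 1819 to 1928 CPM in WT and 1238 to 1362 CPM in Mst1-TG. As a percentage of the summed respiratory chain level it was 3.94% to 4.15% in WT and 5.42% to 6.01% in Mst1-TG, a ratio free of library scaling in which every Mst1-TG library lay above every WT library. The summed respiratory chain and import levels come from the same libraries, and no test was made on their ratio. The respiratory chain sum was 43852.8 to 47512.6 CPM in WT and 20751.5 to 24038.1 CPM in Mst1-TG. That of the mitochondrial ribosomal proteins was 3929 to 4190 CPM in WT and 2399 to 2737 CPM in Mst1-TG. It too fell less than the respiratory chain sum, so a rise of this percentage is not particular to the import genes.

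**Figure D4:**
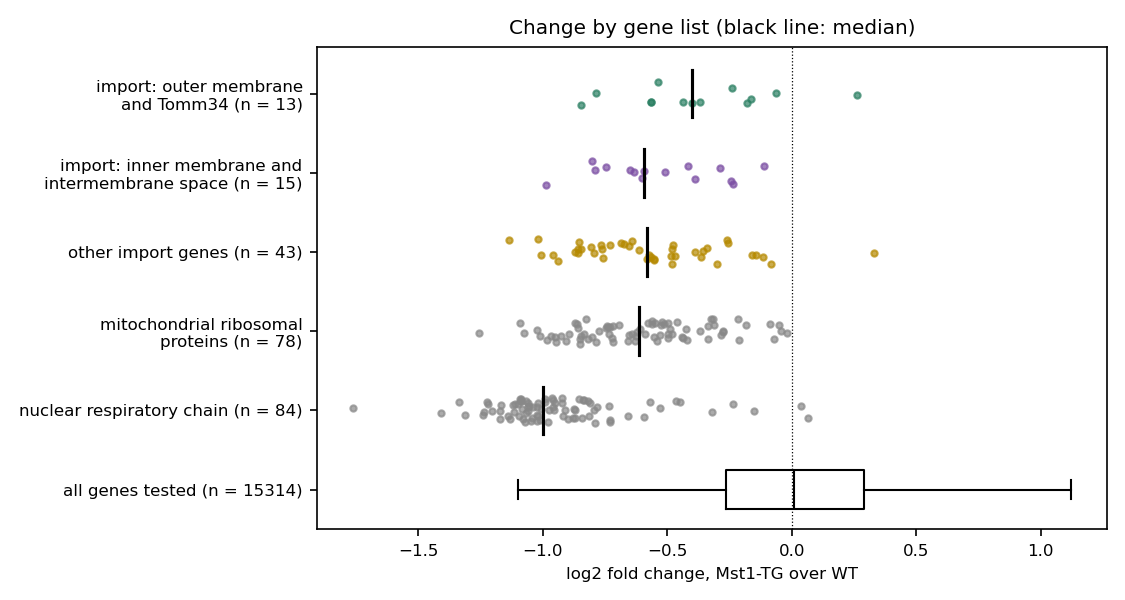
Log2 fold changes, Mst1-TG over WT, of the genes in each list (points) with the median as a black line, and of all 15314 tested genes as a box of quartiles with whiskers to 1.5 times its length, genes beyond them not drawn. Medians lie at -0.40 for outer and -0.59 for inner import genes, -0.58 for other import genes, -0.61 for mitochondrial ribosomal proteins and -0.998 for the respiratory chain, against 0.01 for all genes; with library totals all genes move up by a like amount, which takes the outer median to -0.11 and the inner to -0.31.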

How the data were processed

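Left ventricular RNA of 8 samples was depleted of ribosomal RNA from 200 ng and built into directional libraries, per the labels' protocols. Reads were made with bcl2fastq 2.19.1.403 and assigned to transcripts with kallisto 0.46.0, tools named per the submitters' processing notes. The authors deposited a table of estimated counts per gene, which are whole numbers and not scaled for library size. The build, the annotation and the strand setting were not given in the sources used here. Genes with near-identical copies or with a partner on the opposite strand may therefore share reads. Gene positions and lengths were taken from GENCODE M21 (GRCm38), where all 31 genes matched by identifier and symbol.

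Groups came from the sample titles. Counts were analysed with edgeR 4.0.16 in R 4.3.3. Genes were kept by filterByExpr (minimum count 10, minimum total 15), which left 15314 and set aside 40071. Libraries were scaled by TMM, and the robust quasi-likelihood F test gave p-values, Benjamini-Hochberg adjusted over all tested genes at 0.05. Log2 fold changes are Mst1-TG over WT ± SE, with the SE from the F statistic (log2 fold change over its square root), and CPM values are mean ± SD over n = 4. The biological coefficient of variation was 11.4% and the median SE 0.111. On simulated data from 15041 genes for this comparison, the test recovered 98% of 2-fold and 66% of 1.5-fold changes, with 6.29% false calls. In that simulation only 100 genes changed at each fold, up and down alike, and all genes had the same spread. In the real data 21.1% of genes were called lower and 21.2% higher, so these rates may not hold there. No 2 libraries of a group agreed within counting noise. Within-library ratios used counts plus 0.5. Motifs were matched letter by letter in RefSeq promoters, and copies were found with BLAST 2.17.0 (at least 95% identity over 300 bp).

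All members are named with their values, other import genes up to 3 a role by smallest p plus any that rose, and markers by range and count. Other import genes that did not pass, and some that lost their call with library totals, are named as well. The members and lists were chosen with earlier results of these data known. Alternatives were library totals as the only scaling, DESeq2 size factors, DESeq2 1.42.0, limma-voom (limma 3.58.1), no count filter, mitochondrially encoded genes left out, a replicate block, each library left out, other list limits and exon length, and, added after seeing the data, counts of near-identical copies added to their gene. Protein sequences were not analysed here.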

Additional observations from a re-analysis of the deposited data

Results flagged for a closer look

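In each group of 4 libraries the highest and the lowest value of every tested import gene and ratio were checked for a gap to the next library that takes more of the group's range than Dixon's critical value at 95%. Of 78 groups checked, 9 values passed, and chance passes about 1 in 20 groups. For Tomm22 in Mst1-TG the lowest library, Mst1-TG 2 at 48.9 CPM, had a gap of 0.903 of the range. For Tomm70a in WT the highest library, WT 2 at 106.8 CPM, had 0.842. For Samm50 in WT the highest library, WT 1 at 262.2 CPM, had 0.857. For Mtx3 in WT the highest library, WT 2 at 19.3 CPM, had 0.864. For Timm8a1 in WT the highest library, WT 2 at 19.0 CPM, had 0.86. For the Tomm40/Timm23 ratio in Mst1-TG the lowest library, Mst1-TG 4, had 0.927. For the Samm50/Tomm40 ratio in WT the lowest library, WT 2, had 0.83. For the Mtx1/Mtx2 ratio the lowest WT library, WT 2, had 0.844 and the highest Mst1-TG library, Mst1-TG 2, had 0.892.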

How the results depend on the processing

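Scaling by library totals only moved the results most: the import genes called lower came to 14, and their median log2 fold change to -0.15 (outer -0.11, inner -0.31). Under it 2 other import genes, 1 respiratory chain gene and 5 mitochondrial ribosomal genes were called higher, and over all genes 1592 were called lower and 7409 higher, against 3238 and 3244. The sign turned for Tomm6 (0.11), Tomm7 (0.045), Tomm20 (0.12), Mtx3 (0.22), Timm13 (0.049), Timm17b (0.18) and Timm22 (0.042), and 6 further genes, Tomm22, Tomm70a, Mtx1, Timm10, Timm10b and Timm29, were no longer called. Leaving Tomm34 and Timmdc1 out of the list gave 0 genes called higher. Leaving out each library gave 21 to 24 genes called lower and 0 to 1 called higher, and for Mtx3 log2 fold changes from -0.14 to 0.10. The count called lower was 21 with DESeq2 and 23 with no count filter, where Timm22 passed (-0.24). No pairing of samples by replicate number was seen, which does not show that there was none. Deviations of libraries with the same number correlated at -0.14, 0.07, 0.02 and -0.02, and not every library correlated best with its own number. With the replicate block 21 genes were called lower, and Tomm7 was the member that lost its call. DESeq2 size factors, limma-voom, mitochondrially encoded genes left out and added copies changed no call among the 29 genes. The depth and 4 libraries a group gave a median SE of 0.111 over all genes, and for Timm17b (SE 0.08) and Mtx3 (SE 0.14) no change was detectable, which does not show that there was none.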
